A study of Homo sapiens with 9 samples.

Results

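The chorionic gonadotropin beta genes were followed here with the LHB gene that lies beside them and with CGA, the gene of the subunit they pair with. The members were the 8 genes named CGB1, CGB2, CGB3, CGB5, CGB7, CGB8, CGA and LHB, chosen by name from 60683 genes counted in each of 9 RNA sequencing libraries. Attention had been drawn to the family by CGB5 and CGB8, which were among the genes with the lowest fold changes in oxaliplatin in an earlier look at the same counts. All 8 genes were found, and 6 of them passed the filter on low counts that left 16159 genes to be tested. LHB and CGA did not pass it and are described by their counts.

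The libraries came from wild-type HCT-15, an established line labelled as human colorectal adenocarcinoma, grown in RPMI1640 medium with fetal bovine serum. There were 3 groups of 3 libraries. The untreated cells had no drug. The oxaliplatin cells were started at 0.5 µM of this platinum compound, which crosslinks DNA, for 7 days, were taken through 1, 2 and 4 µM between day 10 and day 30, and were then kept in 4 µM. The sorafenib cells were made resistant in a similar way to this kinase inhibitor, whose doses the labels do not give. Nothing in the labels says that the 3 libraries of a group came from separate cultures. The p-values here therefore set group differences only against the spread between these particular libraries, and that spread may be technical. Total counts ran from 15797076 to 20936536 per library. The labelled tissue was poorly supported by its markers: of 10 colorectal epithelium markers 6, among them CDX2, CDH1 and KRT20, had no count in any library, and all 10 had a median under 1 CPM (counts scaled to a common library size). By contrast 6 of 8 renal epithelium markers had a median of 10 CPM or more.

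Chorionic gonadotropin is the hormone of pregnancy made by the syncytiotrophoblast of the placenta. It is a pair of subunits, an alpha subunit encoded by CGA that is shared with luteinizing, follicle-stimulating and thyroid-stimulating hormone, and a beta subunit that gives the hormone its specificity and is encoded by several near-identical genes. These genes arose by duplication of LHB, which encodes the beta subunit of pituitary luteinizing hormone, and both hormones act on the receptor LHCGR. Some tumours that are not trophoblastic make the beta subunit without the alpha subunit.

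Counts of such genes can only be read with their sequences in view. In GRCh38 the 7 beta genes lie within 42.9 kb at chr19:49015980-49058860, in the order LHB, CGB3, CGB2, CGB1, CGB5, CGB8 and CGB7. CGB2 and CGB5 are on the plus strand and the other 5 on the minus strand. CGB5 spans chr19:49043848-49045311 and CGB8 chr19:49047638-49049106. CGB3 spans chr19:49022869-49024333 and CGB7 chr19:49054275-49058860. CGB2 spans chr19:49031912-49033238, CGB1 chr19:49035610-49036895 and LHB chr19:49015980-49017091. CGA lies apart, at chr6:87085498-87095406.

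The coding sequences of CGB5 and CGB8 in GENCODE v29 were the same in 498 of 498 bases. CGB3 differed from them by 1 base, T450C, where positions are counted from 1 at the A of the start codon and the base of CGB5 is given first. CGB7 differed by 5, which were A65G, C70A, C71T, A410C and G474A. The first 90 coding bases are shown because 3 of these differences fall there, and capitals mark the positions at which the 4 genes are not alike.
CGB5: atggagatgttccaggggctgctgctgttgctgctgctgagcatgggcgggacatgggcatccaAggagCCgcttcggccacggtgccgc
CGB8: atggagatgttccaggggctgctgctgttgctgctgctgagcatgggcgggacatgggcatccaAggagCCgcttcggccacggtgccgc
CGB3: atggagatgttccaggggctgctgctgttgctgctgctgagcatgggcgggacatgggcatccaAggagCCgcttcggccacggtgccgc
CGB7: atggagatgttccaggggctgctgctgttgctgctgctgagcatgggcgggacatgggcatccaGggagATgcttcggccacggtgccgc
CGB2 and CGB1, which are known for a different first part of the transcript, matched CGB5 in 98.8% and 98.7% of aligned coding bases, and LHB in 91.8%. Over the spliced transcripts CGB5 and CGB8 had 4 mismatches in 841 aligned bases, CGB5 and CGB3 had 6, and CGB5 and CGB7 had 25 in 840.

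The 250 bases upstream of each RefSeq start (GRCh38.p14) fell into separate families. They are printed because genes with nearly the same upstream sequence are compared in level afterwards. In the first family, CGB5 (chr19:49043598-49043847, plus strand), CGB8 (chr19:49049112-49049361, minus strand) and CGB3 (chr19:49024334-49024583, minus strand) were alike in 230 of 240 aligned columns. Capitals mark the differences within the columns that all 3 windows cover, and the ends that not all of them reach are left unmarked.
CGB5: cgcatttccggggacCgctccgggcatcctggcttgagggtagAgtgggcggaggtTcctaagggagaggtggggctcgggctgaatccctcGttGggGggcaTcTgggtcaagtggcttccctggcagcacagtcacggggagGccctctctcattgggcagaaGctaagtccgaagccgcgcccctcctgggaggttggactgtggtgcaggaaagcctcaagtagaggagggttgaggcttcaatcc
CGB8: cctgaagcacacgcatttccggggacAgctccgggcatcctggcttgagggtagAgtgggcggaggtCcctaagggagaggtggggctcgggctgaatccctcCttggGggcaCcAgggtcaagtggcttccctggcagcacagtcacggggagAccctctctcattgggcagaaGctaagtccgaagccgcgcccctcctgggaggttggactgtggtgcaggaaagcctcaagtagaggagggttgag
CGB3: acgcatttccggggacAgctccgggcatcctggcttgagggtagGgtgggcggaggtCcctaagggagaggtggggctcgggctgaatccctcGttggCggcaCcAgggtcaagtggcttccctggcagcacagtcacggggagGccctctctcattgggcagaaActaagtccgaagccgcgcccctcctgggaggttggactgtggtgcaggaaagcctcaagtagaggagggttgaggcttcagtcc
The second family held CGB2 (chr19:49031640-49031889, plus strand) and CGB1 (chr19:49036896-49037145, minus strand), which were alike in 82.9% of 228 aligned columns, with capitals again at the differences within those columns.
CGB2: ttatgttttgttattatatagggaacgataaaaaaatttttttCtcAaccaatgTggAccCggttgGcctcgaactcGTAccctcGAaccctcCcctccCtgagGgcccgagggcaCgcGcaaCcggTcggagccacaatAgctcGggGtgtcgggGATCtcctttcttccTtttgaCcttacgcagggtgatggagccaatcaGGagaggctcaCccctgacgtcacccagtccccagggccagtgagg
CGB1: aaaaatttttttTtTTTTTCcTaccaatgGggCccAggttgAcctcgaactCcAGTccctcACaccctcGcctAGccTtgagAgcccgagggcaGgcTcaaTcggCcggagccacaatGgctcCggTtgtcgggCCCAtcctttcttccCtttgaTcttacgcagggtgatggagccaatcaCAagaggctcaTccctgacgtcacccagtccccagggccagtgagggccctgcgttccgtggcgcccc
The upstream windows of CGB7, LHB and CGA could not be aligned with either family. This grouping depends on where each RefSeq start lies. CGB7 has 3386 merged exon bases beside 841 for CGB5, and whether its start matches that of CGB5 was not checked. Its window therefore does not show that the sequence next to the transcript part it shares with CGB5 is different. The palindrome TGACGTCA, the consensus of the cAMP response element, occurred once in CGB2, once in CGB1 and at 2 places in CGA, in none of the other 5 genes, and in 1.65% of 35116 RefSeq windows searched. GCCNNNGGC, a form of the AP-2 motif, occurred in CGB7 alone among the members and in 19.8% of all windows. GGGCGG, the core of the Sp1 motif, occurred in CGB5, CGB8, CGB3, CGB7 and LHB and in 42.6% of all windows. TGACGTCA, GCCNNNGGC and GGGCGG were searched on both strands in windows of 250 bases, and a match is a description of the letters only.

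This likeness limits what a count of 1 gene means. Of all stretches of 100 bases in the CGB5 transcript 71.4% also occur in a transcript of another gene. The share was 64.2% for CGB8, 62.2% for CGB3, 34.1% for CGB7, 72.3% for CGB2 and 75.5% for CGB1, and it was 0 for LHB and CGA. The libraries were made from fragments of 200 bases, and at that length the share was 60.9% for CGB5 and 47.4% for CGB8. How reads with several alignments were counted is not given in the sources used here. Levels of single genes are therefore uncertain wherever a read fits several of them, and the summed counts of the 6 CGB genes are given beside them. If reads with several alignments were dropped, or counted to a gene outside these 6, the sum lacks them too.

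**Figure D1:**
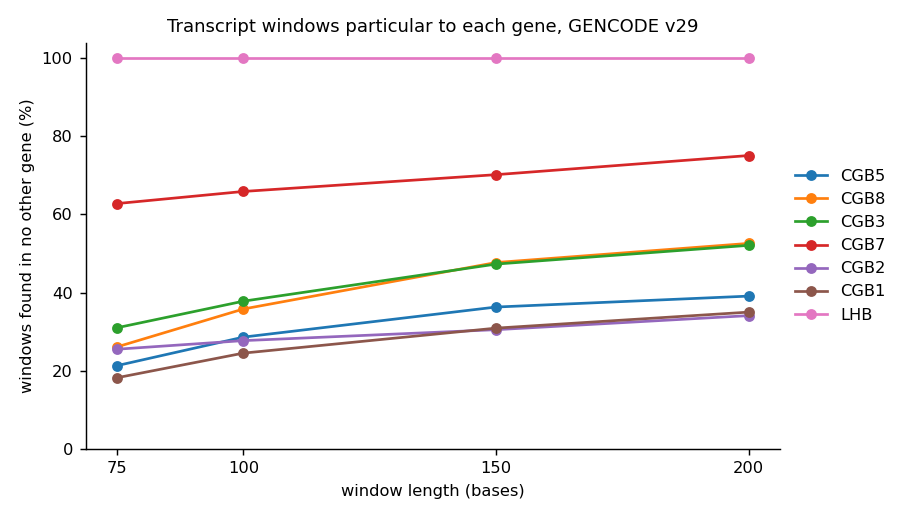
Share of stretches of a transcript found in no other gene's transcript (y axis, percent) for stretches of 75, 100, 150 and 200 bases (x axis), for the 6 CGB genes and LHB, in GENCODE v29. LHB is at 100% throughout, CGB7 is the highest of the CGB genes, and CGB1, CGB2 and CGB5 are at 35.0%, 34.1% and 39.1% at 200 bases.

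Exons shared with other annotated genes are a further limit. Of the exon bases of CGB3 47.4%, and of CGB1 44.6%, are also exon of AC008687.1 on the same strand, and 52.2% of those of CGB7 are also exon of AC008687.7 or AC008687.8. CGB5, CGB8, CGB2 and CGA share none.

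The alpha subunit gene was silent in the counts. CGA had 0 counts in all 9 libraries, where 3 counts, the limit that a count of 0 allows, would be 0.138 to 0.182 CPM. Of its partners in other hormones, FSHB and TSHB had no count in any library, and LHB had at most 22 counts. GPHA2 and GPHB5, the other glycoprotein hormone subunits listed, had no count in any library. The receptors LHCGR, FSHR and TSHR also had no count. The beta subunit transcripts described below were therefore found without detectable transcripts of the alpha subunit or of the receptor.

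CGB5 and CGB8 carried most of the family's counts. CGB5 had 48.2, 236 and 190 CPM in the 3 untreated libraries, 30.8, 32.9 and 55.3 in oxaliplatin, and 30.2, 22.9 and 24.7 in sorafenib. Untreated libraries 2 and 3 were far above all others, while untreated library 1 lay below oxaliplatin library 3. CGB8 had 49.0, 185 and 158 CPM in untreated, 25.9, 28.1 and 47.1 in oxaliplatin, and 34.4, 25.8 and 28.7 in sorafenib. Untreated libraries 2 and 3 were again far above the rest, but here untreated library 1 was just above the highest drug library. Group means for CGB5 were 158 ± 97.7 CPM in untreated, 39.7 ± 13.5 in oxaliplatin and 25.9 ± 3.80 in sorafenib (SD, n = 3).

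CGB3, the other gene with that upstream sequence, had 2.46, 24.4 and 20.1 CPM in untreated, 3.21, 4.34 and 4.50 in oxaliplatin, and 1.36, 1.02 and 1.5 in sorafenib. Here untreated library 1 was below all 3 oxaliplatin libraries and above all 3 sorafenib libraries. Its 42 counts in untreated library 1 stood against 442 and 379 in the other untreated libraries.

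CGB7 had another pattern. It had 13.2, 14.5 and 10.8 CPM in untreated, 8.48, 10.0 and 12.2 in oxaliplatin, and 8.31, 1.82 and 7.82 in sorafenib. The untreated libraries were alike, untreated library 1 included, and overlapped the oxaliplatin libraries. Sorafenib library 2 stood apart with 32 counts against 153 and 146 in the other sorafenib libraries.

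CGB2 and CGB1 were near the lower limit of measurement. CGB2 had 1.06, 3.76 and 3.24 CPM in untreated, 0.138, 0.542 and 0.608 in oxaliplatin, and 0.815, 0.511 and 0.697 in sorafenib. CGB1 had 0.645, 1.66 and 1.27 CPM in untreated, 0.779, 0.542 and 0.547 in oxaliplatin, and 0.326, 0.341 and 0.268 in sorafenib. In both genes untreated libraries 2 and 3 were again the highest of the 9. LHB had 3, 14 and 22 counts in untreated, 6, 0 and 8 in oxaliplatin, and 4, 1 and 0 in sorafenib, so that its highest counts too were in untreated libraries 2 and 3.

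**Figure D2:**
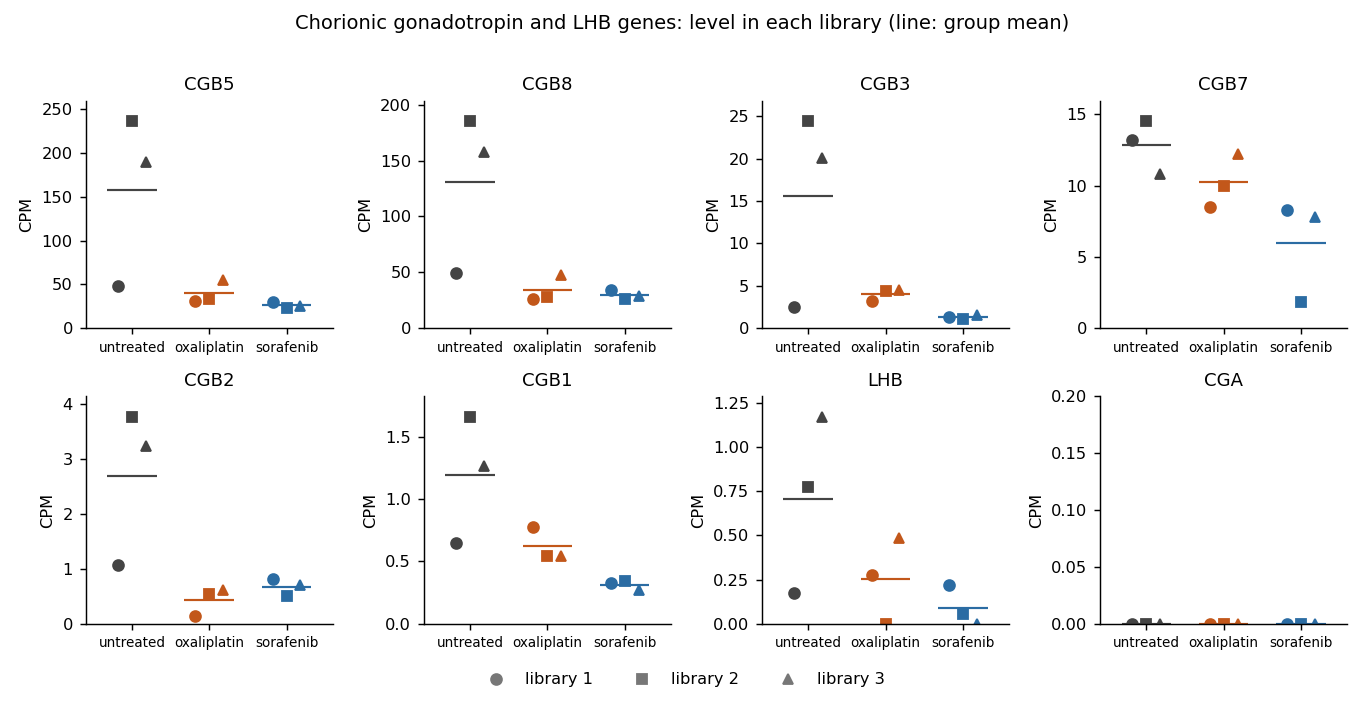
Level of each of the 8 genes (y axis, CPM, a separate linear scale from 0 for each gene) in the 3 libraries of each group (x axis). Each point is a library, its shape gives the library number and the line is the group mean. Untreated libraries 2 and 3 are above all drug libraries for CGB5, CGB8, CGB3, CGB2, CGB1 and LHB, and CGA is at 0 in all 9.

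Levels of different genes were compared per length, as CPM per kb of merged exons. This length is 3.386 kb for CGB7, whose transcript used here has 918 bases, and 0.829 to 0.882 kb for the other CGB genes. The place of CGB7 among them therefore depends on the length chosen. Before scaling, untreated CGB7 had 12.9 ± 1.88 CPM, beside 15.7 ± 11.6 for CGB3 and 2.68 ± 1.43 for CGB2 (SD, n = 3). In untreated cells CGB5 had 188 ± 116 CPM per kb and CGB8 147 ± 81.4 (SD, n = 3), and the difference was less than the spread. CGB3 followed with 17.9 ± 13.2, then CGB7 with 3.81 ± 0.555 and CGB2 with 3.12 ± 1.66, which differed from each other by less than their spread. CGB1 had 1.44 ± 0.616 CPM per kb, LHB 1.12 ± 0.792 and CGA 0. In sorafenib CGB8 had 33.6 ± 4.94 and CGB5 30.8 ± 4.52 CPM per kb, again within the spread. On this scale CGB7, with 1.77 ± 1.07, was level with CGB3, with 1.47 ± 0.281. Before scaling they had 5.98 ± 3.62 and 1.29 ± 0.246 CPM.

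Untreated library 1 stood apart from the other untreated libraries in 5 of the 6 tested genes. The mean CGB5 level of untreated libraries 2 and 3 was 4.41 times that of untreated library 1, and only 0.516% of 14135 genes compared had as large a ratio or larger. The ratio was 3.49 for CGB8, a size reached by 0.75% of genes, and 9.04 for CGB3, reached by 0.212%. It was 3.31 for CGB2 and 2.27 for CGB1, but 0.961 for CGB7. Across all genes the library did not separate cleanly from its group: its correlation with the other untreated libraries was 0.971 and 0.972, within the 0.970 to 0.979 seen inside groups, but it was 0.975 with sorafenib library 1. With every drug library its correlation was higher than that of untreated library 2 or 3. With oxaliplatin it was 0.953 to 0.964, beside 0.937 to 0.948 for untreated library 2 and 0.946 to 0.954 for untreated library 3. With sorafenib it was 0.968 to 0.975, beside 0.952 to 0.967 and 0.959 to 0.968. The part of untreated library 1 in the results was not tested, and results are given with and without it. It was singled out on these same CGB levels, as the lowest untreated library in those 5 genes. Leaving it out therefore lowers their fold changes by construction, and such values are not support.

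The summed level of the 6 CGB genes was 115, 465 and 383 CPM in untreated, 69.4, 76.4 and 120 in oxaliplatin, and 75.4, 52.4 and 63.6 in sorafenib. Untreated library 1 lay between oxaliplatin library 3 and the other drug libraries, and the untreated and oxaliplatin groups overlapped. Fitted as a single feature, the sum had a log2 fold change of -1.86 ± 0.48 (SE) in oxaliplatin and -2.33 ± 0.49 in sorafenib, both against untreated, which share the untreated libraries. Without untreated library 1 these were -2.26 ± 0.25 and -2.73 ± 0.25. The direction was the same and the error was smaller. This outcome follows from leaving out the untreated library with the lowest summed level, and is no added support.

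Oxaliplatin against untreated was the comparison that brought the family into view, so its values are a description and have no test. The log2 fold change was -1.99 ± 0.53 (SE) for CGB5, -1.95 ± 0.47 for CGB8 and -1.97 ± 0.67 for CGB3. These 3 genes, alike upstream and in much of their transcripts, had values within a small part of their error of each other. What this likeness in value rests on was not tested, and in sorafenib the 3 genes ran from -3.59 to -2.14. It was -2.67 ± 0.57 for CGB2 and -0.92 ± 0.39 for CGB1, the pair of the second upstream family, and -0.33 ± 0.44 for CGB7, which lay within its error of 0. Over all genes tested 31.7% were called in this comparison (edgeR's quasi-likelihood test, adjusted p under 0.05) and 4.31% had a log2 fold change of -1 or lower, beside a median of 0.02. The untreated and oxaliplatin libraries did not overlap for CGB8 and CGB2, 2 of the 6 genes tested, and the same was true of 48.1% of all genes. Without untreated library 1 the value of CGB5 was -2.43 ± 0.25, that of CGB8 -2.35 ± 0.25, that of CGB3 -2.47 ± 0.21 and that of CGB2 -3.05 ± 0.47. That of CGB7 was -0.31 ± 0.53.

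Sorafenib against untreated used the same untreated libraries that helped to draw attention to CGB5 and CGB8, so its p-values and calls describe these libraries and are not independent support. The log2 fold change of CGB3 was -3.59 ± 0.74 (SE, adjusted p = 0.0382 by edgeR's quasi-likelihood test, adjusted by Benjamini and Hochberg over all genes). CGB5 had -2.61 ± 0.54 (adjusted p = 0.0405) and CGB8 -2.14 ± 0.47 (adjusted p = 0.0436). CGB1 had -1.92 ± 0.43 (adjusted p = 0.0386), from 5 or 6 counts per sorafenib library. CGB2 had -1.98 ± 0.54 (adjusted p = 0.0614) and CGB7 -1.10 ± 0.45 (adjusted p = 0.171), which did not pass. The 4 genes called compare with 4.8% of all genes tested, 1.97% in the lower direction, and the all-gene median was 0.00. For all 6 genes every sorafenib library was below every untreated library, as for 14.3% of all genes.

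The calls in sorafenib were not stable. The adjusted p of CGB5, CGB8 and CGB3 rose above 0.05 when any of the 9 libraries but untreated library 1 was left out, oxaliplatin libraries included, with values from 0.0502 to 0.173. For CGB1 it did so without untreated library 2 or 3, oxaliplatin library 1 or 2, or sorafenib library 2 or 3, with values from 0.0589 to 0.153. Without untreated library 1 the edgeR adjusted p was 0.000903 for CGB5, 0.00157 for CGB8, 0.000132 for CGB3, 0.0119 for CGB1 and 0.0171 for CGB2. That library had been singled out on these same levels, so the smaller p-values without it are not support. CGB7 was not called with any library left out. The fold changes moved less than the calls: over these 9 fits that of CGB5 ran from -3.04 to -2.20 and that of CGB8 from -2.53 to -1.80.

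**Figure D3:**
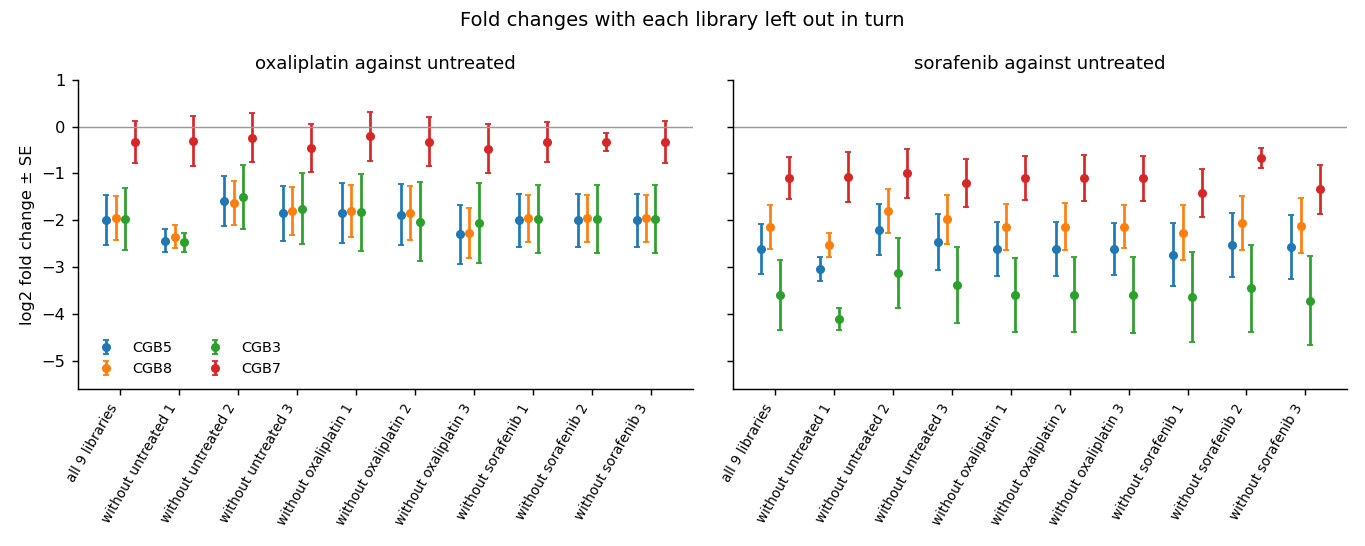
Log2 fold change (y axis, bars are SE) of CGB5, CGB8, CGB3 and CGB7 against untreated, fitted on all 9 libraries and with each library left out in turn (x axis), for oxaliplatin on the left and sorafenib on the right. Without untreated library 1 the values of CGB5, CGB8 and CGB3 are the lowest and their errors the smallest, and CGB7 stays closest to 0 in all fits. Untreated library 1 was the lowest untreated library for CGB5, CGB8 and CGB3.

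For CGB5, CGB8, CGB3 and CGB2 the value between the drug groups was smaller in size than either value against untreated. Oxaliplatin minus sorafenib was 0.61 ± 0.52 (log2, SE) for CGB5 and 0.18 ± 0.45 for CGB8, about the size of their errors or less. It was 1.62 ± 0.74 for CGB3, 1.00 ± 0.45 for CGB1, 0.77 ± 0.45 for CGB7 and -0.69 ± 0.63 for CGB2. No test is given, since the oxaliplatin libraries belong to the comparison that drew attention. The oxaliplatin and sorafenib libraries did not overlap for CGB5, CGB3, CGB7 and CGB1, 4 of 6 genes, with 34.9% of all genes doing the same. With the summed counts the value was 0.47 ± 0.47.

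The proportions within the family are free of library depth and were recorded as a description, with 95% Wilson intervals that cover counting error only. CGB5 made up 49.6%, 56.1% and 54.6% of the counts of CGB5 and CGB8 together in untreated, 54.3%, 53.9% and 54.0% in oxaliplatin, and 46.7%, 47.0% and 46.2% in sorafenib. The sorafenib libraries agreed closely with each other and lay below all others. Untreated library 1, with an interval of 47.2% to 52.0%, was nearer to sorafenib library 1 (43.9% to 49.6%) than to untreated library 2 (55.0% to 57.2%). Group means were 53.4 ± 3.39% in untreated, 54.1 ± 0.217% in oxaliplatin and 46.6 ± 0.375% in sorafenib (SD, n = 3).

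CGB3 behaved likewise in proportion to its near-copies. It made up 2.47%, 5.49% and 5.47% of the counts of CGB3, CGB5 and CGB8 in untreated, 5.35%, 6.64% and 4.21% in oxaliplatin, and 2.06%, 2.05% and 2.74% in sorafenib. Untreated libraries 2 and 3 were in the range of oxaliplatin, and untreated library 1 was in that of sorafenib. CGB7 made up 11.5% of the 6 CGB genes in untreated library 1 but 3.13% and 2.83% in untreated libraries 2 and 3. In oxaliplatin its share was 12.2%, 13.1% and 10.1%, and in sorafenib it was 11%, 3.47% and 12.3%. Its share was thus high where CGB5 and CGB8 were low, apart from sorafenib library 2, where CGB7 itself was low.

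**Figure D4:**
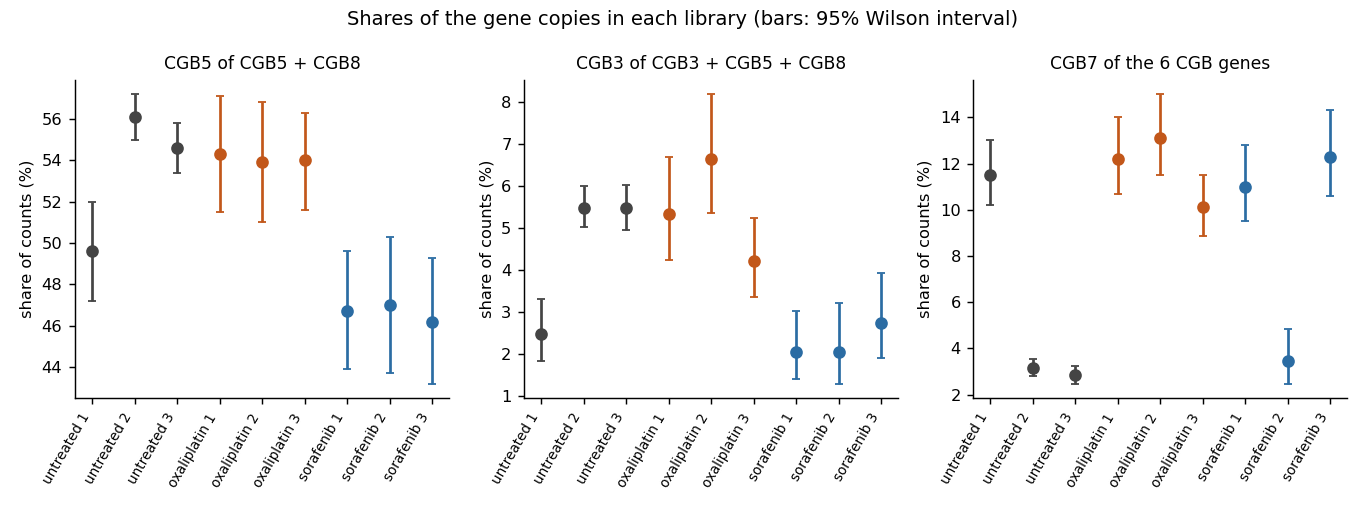
Share of counts (y axis, percent, axes not from 0) in each of the 9 libraries (x axis) for CGB5 among CGB5 and CGB8, CGB3 among CGB3, CGB5 and CGB8, and CGB7 among the 6 CGB genes, with 95% Wilson intervals. In the left panel the 3 sorafenib libraries lie from 46.2% to 47.0%, below the oxaliplatin libraries at 53.9% to 54.3%, and untreated library 1 lies at 49.6%.

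Across the 9 libraries the log2 levels of CGB5 and CGB8 went together (Pearson r = 0.99), as did CGB5 and CGB3 (r = 0.95) and CGB5 and CGB1 (r = 0.90). These genes share libraries, depth and much of their sequence, so the values describe and do not test. Without untreated libraries 2 and 3, the farthest from the median of the summed level, r was 0.89 for CGB5 and CGB8, 0.71 for CGB5 and CGB3, and 0.61 for CGB5 and CGB1. CGB5 and CGB2 had r = 0.86 with all 9 libraries and 0.27 without that pair of libraries, so this relation rests on it. So did several others: r went from 0.90 to 0.33 for CGB8 and CGB3, and from 0.85 to 0.26 for CGB8 and CGB1. It went from 0.72 to -0.26 for CGB3 and CGB2, and from 0.61 to -0.45 for CGB1 and CGB2. CGB3 and CGB1 (0.94 to 0.76) and CGB8 and CGB2 (0.92 to 0.61) held better. For CGB7, r rose from 0.56 to 0.73 with CGB5, from 0.51 to 0.61 with CGB8 and from 0.61 to 0.70 with CGB3. It fell from 0.54 to 0.48 with CGB1 and from 0.39 to 0.19 with CGB2.

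Among the 10131 genes averaging 5 CPM or more, the 5 most like the summed CGB level across the 9 libraries were GRWD1 (r = 0.986), NUSAP1 (0.985), FBLN1 (0.982), VASN (0.977) and PHF5A (0.977). NUSAP1, a protein of the mitotic spindle, had 86.7, 142 and 143 CPM in untreated, 67.2, 74.0 and 90.2 in oxaliplatin, and 71.0, 69.8 and 63.1 in sorafenib. FBLN1, an extracellular matrix protein, had 321, 446 and 396 CPM in untreated and 234 to 308 in the drug libraries. The most opposed were ARHGAP5 (r = -0.979), TSPAN12 (-0.977), CASTOR3 (-0.976), DNM2 (-0.974) and MAP3K5 (-0.974). ARHGAP5, a GTPase-activating protein, had 49.8 CPM in untreated library 1 but 9.23 and 10.6 in untreated libraries 2 and 3, and 30.7 to 69.6 in the drug libraries. With untreated libraries 2 and 3 left out, r was 0.87 for GRWD1, 0.90 for NUSAP1, 0.96 for FBLN1, 0.93 for VASN and 0.85 for PHF5A, and from -0.86 to -0.79 for the 5 opposed genes. In all 110 genes had r over 0.9 and 138 under -0.9.

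Around the cluster, 30 other genes lie within 100000 bases of its ends, and 15 of them were tested. In oxaliplatin 4 of these fell and none rose, where 15.5% of all genes fell: RUVBL2, a helicase of chromatin complexes, by 1.07 ± 0.17 (log2, SE, edgeR adjusted p = 0.0031), SNRNP70 by 0.81 ± 0.20 (adjusted p = 0.014), FTL by 0.57 ± 0.14 (adjusted p = 0.0129) and BAX by 0.55 ± 0.15 (adjusted p = 0.023). The calls of RUVBL2 and FTL held with each library left out. That of SNRNP70 was lost without untreated library 2 or oxaliplatin library 1 (adjusted p up to 0.0562), and that of BAX without untreated library 2 or 3 or oxaliplatin library 1 or 2 (up to 0.0836). These 4 lie outside the cluster, and their values were smaller than that of CGB5. NUCB1 (-0.32 ± 0.14), GYS1 (-0.21 ± 0.11) and TRPM4 (-0.11 ± 0.19) did not pass.

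Inside the cluster 4 genes that are not members were tested, all at low levels, and in 3 of them untreated libraries 2 and 3 were the highest of the 9. AC008687.6, a pseudogene, had 1.64, 4.81 and 5.73 CPM in untreated, 1.79, 1.63 and 3.83 in oxaliplatin, and 1.14, 0.965 and 1.5 in sorafenib (sorafenib against untreated -1.75 ± 0.49, edgeR adjusted p = 0.0673). AC008687.4 had 0.587, 2.16 and 2.28 CPM in untreated and 0.217, 0.227 and 0 in sorafenib (adjusted p = 0.0531 by edgeR). AC008687.7, a transcribed pseudogene that shares exon with CGB7, had 7, 49 and 37 counts in untreated, 4, 7 and 11 in oxaliplatin and 0 in every sorafenib library. Its untreated mean of 1.69 CPM was at least 10.3-fold higher than the 0.165 CPM that 3 counts per sorafenib library would give (edgeR adjusted p = 0.0274). That call was lost without untreated library 2 or 3, oxaliplatin library 2, or sorafenib library 2 or 3, with an adjusted p of up to 0.089. AC008687.1, which shares exon with CGB3 and CGB1, was the exception. It had 0.469, 1.82 and 0.796 CPM in untreated, 0.0458, 0.108 and 1.28 in oxaliplatin, and 0.217, 0.397 and 0 in sorafenib. Oxaliplatin library 3 was above untreated library 3, and the gene was called in neither drug (-1.19 ± 1.04 and -2.31 ± 1.16, log2, SE).

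**Figure D5:**
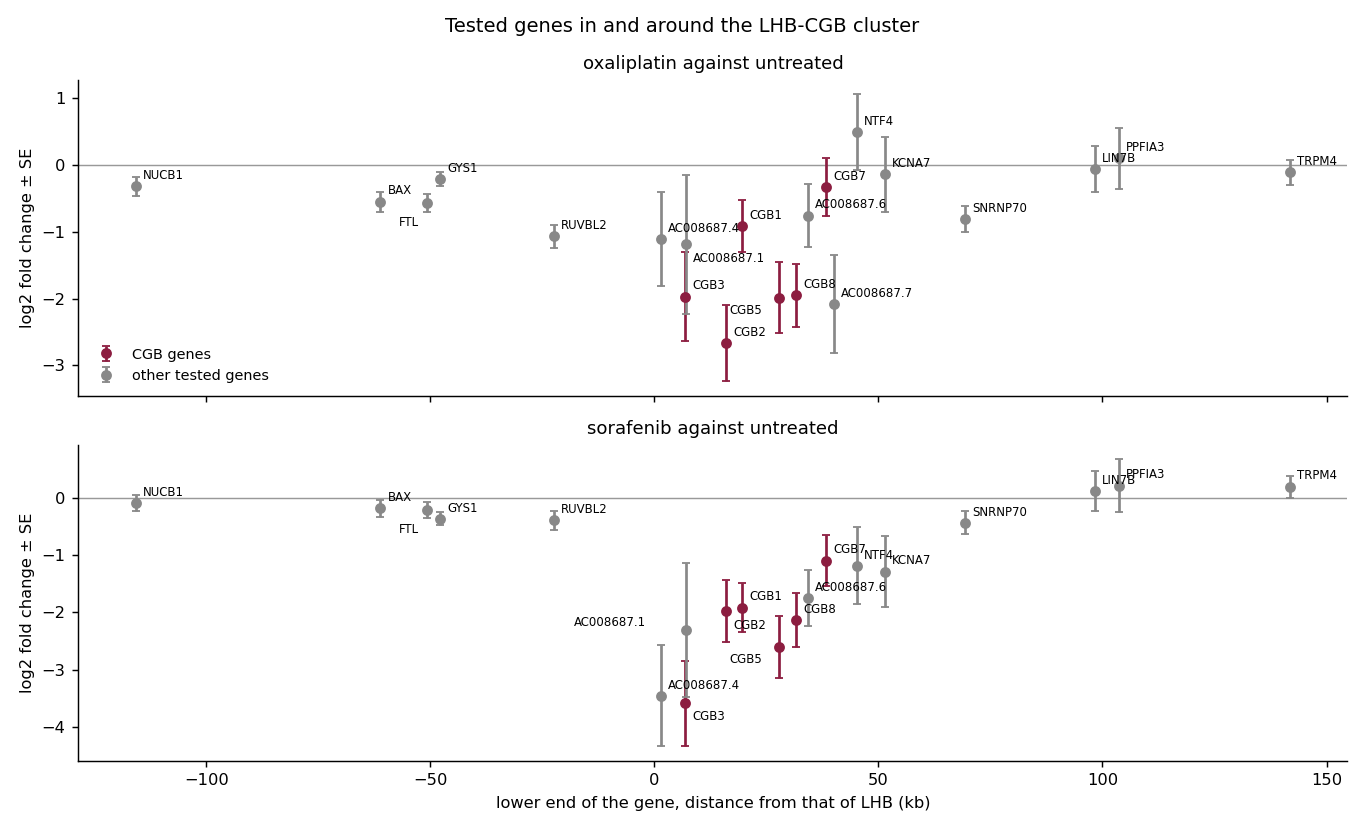
Log2 fold change against untreated (y axis, bars are SE) of the tested genes within 100000 bases of the cluster, by the distance of their lower end from that of LHB (x axis, kb), for oxaliplatin above and sorafenib below. CGB genes are in dark red, and AC008687.7, with 0 counts in sorafenib, is left out of the lower panel. In the lower panel the tested genes below LHB lie between -0.40 and -0.10 and the CGB genes between -3.59 and -1.10. Low-level genes that were not called are also in the CGB range. These are AC008687.4 (-3.46), AC008687.1 (-2.31) and AC008687.6 (-1.75) inside the cluster, and KCNA7 (-1.29) and NTF4 (-1.19) above it. The farther genes SNRNP70, LIN7B, PPFIA3 and TRPM4 lie between -0.44 and 0.21.

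The regulators of these promoters in trophoblast were listed as 16 genes, of which 12 were tested. In oxaliplatin 2 rose and 2 fell, beside 31.7% called over all genes, and in sorafenib edgeR called 1, which rose, beside 4.8%, while 7 had an unadjusted p under 0.05 and DESeq2 called 3. The median log2 fold change of the tested genes was 0.12 and -0.01. POU5F1, which encodes a factor known to repress CGA and CGB promoters in choriocarcinoma cells, had 3.75, 2.71 and 3.82 CPM in untreated, 1.65, 1.46 and 1.58 in oxaliplatin, and 5.87, 6.47 and 6.86 in sorafenib. The 3 groups did not overlap. It fell by 1.13 ± 0.21 in oxaliplatin (log2, SE, edgeR adjusted p = 0.00474) and rose by 0.90 ± 0.19 in sorafenib (adjusted p = 0.0343), opposite directions while the CGB values were below untreated in both. The sorafenib call was lost without untreated library 2 or 3, oxaliplatin library 1 or 2, or sorafenib library 2 or 3, with an adjusted p of up to 0.134. POU5F1 has near-identical pseudogenes, so its counts are uncertain.

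TFAP2A, an AP-2 factor that activates CGB promoters, had 7.54 ± 0.718 CPM in untreated, 7.51 ± 1.01 in oxaliplatin and 10.3 ± 0.910 in sorafenib (SD, n = 3) and was not called. TFAP2C, the AP-2 factor most used in trophoblast, had no count in any library, and GATA3 reached at most 0.276 CPM. GCM1, the factor that drives syncytiotrophoblast formation, had 6.07 ± 0.918, 7.52 ± 0.207 and 5.27 ± 0.0929 CPM and was not called. CREB1, which binds cAMP response elements, rose by 0.59 ± 0.17 in oxaliplatin (edgeR adjusted p = 0.0282) and SP1 by 0.37 ± 0.12 (adjusted p = 0.0422). Leaving out single libraries ended both calls, with adjusted p up to 0.106 for CREB1 without untreated library 2 or 3 or oxaliplatin library 1 or 2, and up to 0.153 for SP1 without any of those or sorafenib library 2 or 3. ATF4, a stress-induced factor, fell by 0.70 ± 0.13 in oxaliplatin, from 1060 ± 126 to 653 ± 64.9 CPM (edgeR adjusted p = 0.00488), and was at 806 ± 87.8 CPM in sorafenib (adjusted p = 0.0974).

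Among 7 regulators of the pituitary LHB promoter, of which 5 were tested, 4 rose in oxaliplatin and 1 fell in sorafenib, beside 31.7% and 4.8% called over all genes. EGR1, the factor through which gonadotropin-releasing hormone turns on LHB, had 30.7, 22.1 and 21.3 CPM in untreated, 81.2, 72.2 and 105 in oxaliplatin, and 5.87, 7.83 and 6.22 in sorafenib. It rose by 1.80 ± 0.20 in oxaliplatin (log2, SE, edgeR adjusted p = 0.00103) and fell by 1.89 ± 0.20 in sorafenib (adjusted p = 0.00191), with calls that held in every alternative run. LHB stayed at or under 22 counts throughout. NAB1, which represses EGR1, rose by 0.69 ± 0.14 in oxaliplatin (adjusted p = 0.00676). SP1, also in the list above, was another that rose. NR5A1, the steroidogenic factor of gonadotropes, had 2 counts in all 9 libraries together.

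The cAMP pathway, which raises transcription of CGA and CGB in trophoblast, was listed as 19 genes with 17 tested. In oxaliplatin 7 rose and 2 fell, beside 31.7% called over all genes, with a median of 0.39 beside 0.02 over all genes. In sorafenib none was called by edgeR's quasi-likelihood test, beside 4.8% of all genes, while 5 had an unadjusted p under 0.05 and DESeq2 called 3. PRKACA, a catalytic subunit of protein kinase A, fell by 2.03 ± 0.24 in oxaliplatin (log2, SE, edgeR adjusted p = 0.00127), from 2.70, 2.32 and 2.76 CPM to 0.688, 0.651 and 0.547. The other catalytic subunit gene, PRKACB, rose by 0.60 ± 0.14, to 53.2 ± 4.59 CPM (adjusted p = 0.00981). PRKAR1B, a regulatory subunit, fell by 1.01 ± 0.19 (adjusted p = 0.00478), and EP300, a coactivator of CREB, rose by 1.75 ± 0.34 (adjusted p = 0.00693). CREBBP, another coactivator, rose by 0.70 ± 0.16 (adjusted p = 0.0106). The calls of these 5 genes held with each library left out. The other 4 that rose were not stable: the call of ADCY7 was lost without untreated library 2 or oxaliplatin library 1 or 3, that of ADCY6 without any library but untreated 2 or sorafenib 1, that of PRKAR2A without any but sorafenib 1, and that of CREB1 as given above, with an adjusted p of up to 0.147. PRKAR1A, named after its values were seen, was uneven in untreated in another way than CGB5, with 77.3, 65.4 and 261 CPM, so that the split of untreated library 1 from the other untreated libraries was not shared by every uneven gene.

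The beta subunit is folded in the endoplasmic reticulum around a knot of disulfide bonds, and the 11 listed folding genes were all tested. In oxaliplatin 4 fell and 1 rose, beside 31.7% called over all genes and 15.5% that fell. Those that fell were the disulfide isomerases P4HB, by 0.62 ± 0.13 (log2, SE, edgeR adjusted p = 0.00716), and PDIA3, by 0.64 ± 0.13 (adjusted p = 0.00723), and the chaperones HSPA5, by 0.68 ± 0.14 (adjusted p = 0.00713), and DNAJB11, by 0.68 ± 0.13 (adjusted p = 0.00541). These 4 calls held with each library left out. ERO1B, an oxidase, rose by 0.62 ± 0.17 (adjusted p = 0.0211), a call lost without untreated library 2 or 3 or oxaliplatin library 1 or 2 (up to 0.0856). In sorafenib none of the 11 was called by edgeR, beside 4.8% over all genes, 2 had an unadjusted p under 0.05, and DESeq2 called 1.

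Terminal glycosylation separates the gonadotropins, since pituitary luteinizing hormone carries sulfated sugars and chorionic gonadotropin carries sialic acid on galactose. Of 13 genes listed 12 were tested. In oxaliplatin edgeR called 1, beside 31.7% over all genes, while 3 had an unadjusted p under 0.05 and DESeq2 called 2. The gene called by edgeR was B4GALT1, a galactosyltransferase, which rose from 199, 191 and 199 CPM to 334, 337 and 330 (log2 0.76 ± 0.09, SE, edgeR adjusted p = 0.00113). In sorafenib edgeR called 1, beside 4.8% over all genes, while 3 had an unadjusted p under 0.05 and DESeq2 called 1. The gene called by edgeR was B4GALNT3, which adds the sugar that is sulfated on pituitary hormones. It rose by 0.95 ± 0.22 (edgeR adjusted p = 0.0431), a call lost without any library but untreated 1 or sorafenib 1 (adjusted p up to 0.163). CHST8, the sulfotransferase of the pituitary hormone, had no count. The sialyltransferases ST3GAL3, ST3GAL4, ST3GAL6 and ST6GAL1 were not called in either drug.

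Other trophoblast genes were mostly absent. Of 32 trophoblast and placenta genes 17 had no count in any library, among them CYP19A1, HSD3B1, CSH1 and HLA-G. In all 25 had a median under 1 CPM, while 3 had a median of 10 CPM or more. GCM1, also in this list, was at 5.16 to 7.7 CPM across the 9 libraries. The fusion protein genes ERVW-1 and ERVFRD-1 reached at most 0.568 and 0.163 CPM. The summed level of the list was 121 to 139 CPM in untreated, 139 to 153 in oxaliplatin and 98.8 to 123 in sorafenib. Only 7 genes of the list were tested. In oxaliplatin edgeR called 1, beside 31.7% over all genes, while 3 had an unadjusted p under 0.05 and DESeq2 called 1. The gene called by edgeR was PAPPA2, a protease abundant in placenta, which rose by 0.68 ± 0.15 (log2, SE, edgeR adjusted p = 0.00851). In sorafenib edgeR called none, beside 4.8% over all genes, 1 had an unadjusted p under 0.05, and DESeq2 called 1. Of 10 pituitary gonadotrope genes 6, and of 9 germ cell genes 7, had no count. The CGB counts therefore stood without most of the listed genes of the tissues that normally make these hormones, though GCM1 was among those detected. Fewer cells with CGB transcripts cannot be told apart from less transcript per cell in these bulk libraries.

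VIL1, the colorectal marker with the highest level in any library, was unevenly distributed in the same way as CGB5. It had 0.176, 6.91 and 7.27 CPM in the untreated libraries and at most 0.107 CPM in any drug library, and it did not pass the filter. It was singled out after its values were seen, because untreated libraries 2 and 3 again differed from untreated library 1 in it, and its part in the CGB values was not tested.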

How the data were processed

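The values are raw read counts per gene, made by the authors with featureCounts on GRCh38 and deposited unnormalized, per the submitters' processing notes, which also name DESeq2. Aligner, annotation release, strand setting and handling of reads with several alignments are not given in the sources used here. This matters for the CGB genes, whose reads can fit several copies and, where exons overlap without strand, other genes. Per the labels' protocols, mRNA was sheared to 200 bases and sequenced on an Illumina NovaSeq.

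Counts were filtered (filterByExpr, minimum count 10), scaled by TMM and fitted with edgeR 4.0.16's robust quasi-likelihood model in R 4.3.3 with 1 coefficient for each of 3 groups. Tests were 2-sided, adjusted over all 16159 genes and called at an adjusted p under 0.05. The SE is the absolute log2 fold change over the square root of F. CPM uses TMM factors. The fit was tested on simulated data. Depth was 15797076 to 20936536 counts per library, and intervals and limits cover counting error only. Libraries of a group differed by more than sampling noise and were kept as 3.

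The members and gene lists were chosen with earlier results of these data known. Named genes were the 8 members, up to 4 called genes per list with a mean of at least 1 CPM, TFAP2A, TFAP2C, GCM1, LHCGR, EGR1, GATA3 and ATF4, neighbours within 100000 bases, and the 5 highest and 5 lowest correlations. Some listed genes are counted but not reported here by name. Alternatives were DESeq2 1.42.0, RLE and library-size scaling, no filter, keeping genes averaging 1 CPM, fitting 2 groups alone, a replicate block, other sums of copies, and leaving out each library. Sequences came from RefSeq (GRCh38.p14, all 8 members matched) and GENCODE v29, aligned with mafft 7.526 and Biopython 1.88.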

Additional observations from a re-analysis of the deposited data

How the results depend on the processing

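The fold changes of the 6 tested CGB genes and of their sum against untreated kept their direction in every alternative run, while the sorafenib calls did not. For the 6 genes in sorafenib against untreated 94 alternative values were computed: 50 kept direction and side of the threshold, 41 lost a call and 3 gained one. Without the filter on low counts the sorafenib value of CGB5 was -2.61 (adjusted p = 0.0969), of CGB8 -2.14 (0.109) and of CGB3 -3.59 (0.0923), which were no longer called, and that of CGB2 was -1.98 (0.0459), now called. With only the 2 groups compared the values were -2.60 for CGB5, -2.13 for CGB8, -3.58 for CGB3 and -1.91 for CGB1 (adjusted p 0.0732 to 0.0867), none called. DESeq2 called CGB2 at -2.0 (adjusted p = 0.0134) and gave no adjusted p for CGB1, which had no value under the filter at a mean of 1 CPM. Leaving out 1 library gave sorafenib values of -3.04 to -2.20 for CGB5, -2.53 to -1.80 for CGB8, -4.10 to -3.12 for CGB3, -2.21 to -1.61 for CGB1 and -2.36 to -1.67 for CGB2. Over all their alternatives the adjusted p ran from 3.55e-07 to 0.167 for CGB5 and from 1.75e-07 to 0.164 for CGB3. CGB8 in oxaliplatin against sorafenib, not tested, ran from -0.13 to 0.34 and changed sign without oxaliplatin library 3.

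The replicate number was also fitted as a block. Same-numbered libraries did not deviate together (correlations from -0.111 to 0.0359, 0 of 9 libraries closest to their own number), so the numbers were not taken as pairing. With the block the sorafenib values were -2.41 for CGB5, -1.99 for CGB8, -3.29 for CGB3 and -1.89 for CGB1 (adjusted p 0.0897 to 0.108), none called. The block called 184 genes in sorafenib against untreated and 809 in oxaliplatin against sorafenib.

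Counts of called genes were 5123 in oxaliplatin and 775 in sorafenib against untreated, and 1659 between the drugs. Leaving out 1 library gave 2913 to 5403, 113 to 1743 and 572 to 1949. In sorafenib DESeq2 called 1804 genes and the fit of 2 groups 311. The sum of CGB3, CGB5 and CGB8 alone was added after the data had been seen and kept the direction of the sum of 6. Depth limits CGB1, CGB2 and LHB, whose drug libraries held at most 17 counts of any of them.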
